A study of Mus musculus with 10 samples.

Results

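The genes described here build the gate through which a plasma cell passes its antibody chains into the endoplasmic reticulum (ER). They were chosen by name, as 36 genes of the signal recognition particle, its receptor, the Sec61 channel with its partners, the TRAP complex, signal peptidase and oligosaccharyltransferase. Of the 36, 35 had a probe set that names a single gene, among 22180 genes measured that way, and each gene was represented by its brightest such probe set. Srp54a had no such probe set, since its probes are shared with its near-identical copies.

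RNA was measured on 10 Affymetrix arrays, 5 from mice treated with rapamycin, an inhibitor of mTOR complex 1, and 5 from untreated mice. All 10 mice were B6.BLIMP1 +/GFP animals, with a GFP reporter at 1 of their 2 copies of the Blimp1 locus, and the cells were bone marrow plasma cells sorted as negative for B220 and positive for Blimp1. None of the sources used here gives the age of the mice or the dose and length of treatment. The cell sort itself rests on Blimp1, the regulator that drives plasma cell differentiation.

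A secreted protein is recognised by the signal recognition particle (SRP) as its signal peptide leaves the ribosome, and is brought to the SRP receptor on the ER membrane. The Sec61 channel then lets the growing chain through, signal peptidase cuts off the signal peptide, and oligosaccharyltransferase (OST) attaches preassembled sugar chains to asparagine residues. Plasma cells are known for a large rough ER, since they secrete antibody, whose heavy chains carry such sugars.

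None of the 35 genes passed the test between the groups, while Hspa5, the gene of the ER chaperone BiP that works on the inner side of the same channel, fell with rapamycin. In limma, 0 of 35 members rose and 0 fell at a Benjamini-Hochberg adjusted p under 0.05, with a smallest adjusted p of 0.215, for Stt3b. Over all genes the share called was 0.153%, with 0.126% higher and 0.0271% lower, so that a count of 0 among 35 is no result about these genes. At an unadjusted p under 0.05, 2 members were higher and 3 lower, which is 14.3% of them, beside 9.39% of all genes (6.13% higher and 3.26% lower) and 12.6% of the genes above the median signal, where all 35 lie. Differences are given on the log2 scale as rapamycin minus untreated. Their median over the 35 members was 0.0070 and over all genes 0.0087, and 34 of 35 members differed by less than 0.25 in either direction, as did 93.5% of all genes and 90.3% of the genes above the median signal.

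The arrays were precise for this set. The median SD within a group was 0.11 over the members and 0.15 over all genes. For 34 of 35 members the 95% interval of the difference lay within 0.5 of no difference. For all 35 it lay above the point value of -0.71 for Hspa5, but the interval of Hspa5 itself overlapped that of Stt3b, -0.67 to -0.16. Hspa5 was among the 6 genes called lower, which are 0.0271% of all genes. The Y-linked Eif2s3y, Kdm5d and Uty were also among these 6, and the arrays differed in sex as described below. The shares of all genes whose intervals lie within 0.5 of no difference, or above the Hspa5 value, were not computed. The 2 counts of members therefore cannot set them apart from other genes. Hspa5 had log2 signals of 10.89, 10.89, 10.85, 10.34 and 10.92 on the rapamycin arrays, against 11.43, 11.57, 11.37, 11.65 and 11.42 on the untreated arrays. Every rapamycin array lay below every untreated array (95% interval -0.92 to -0.50, adjusted p = 0.0045 in limma). Taken within each array, Hspa5 minus the member was lower on all 5 rapamycin arrays than on any untreated array for 34 of 35 members, Stt3b being the exception. The same held for 86.3% of all genes.

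**Figure D1:**
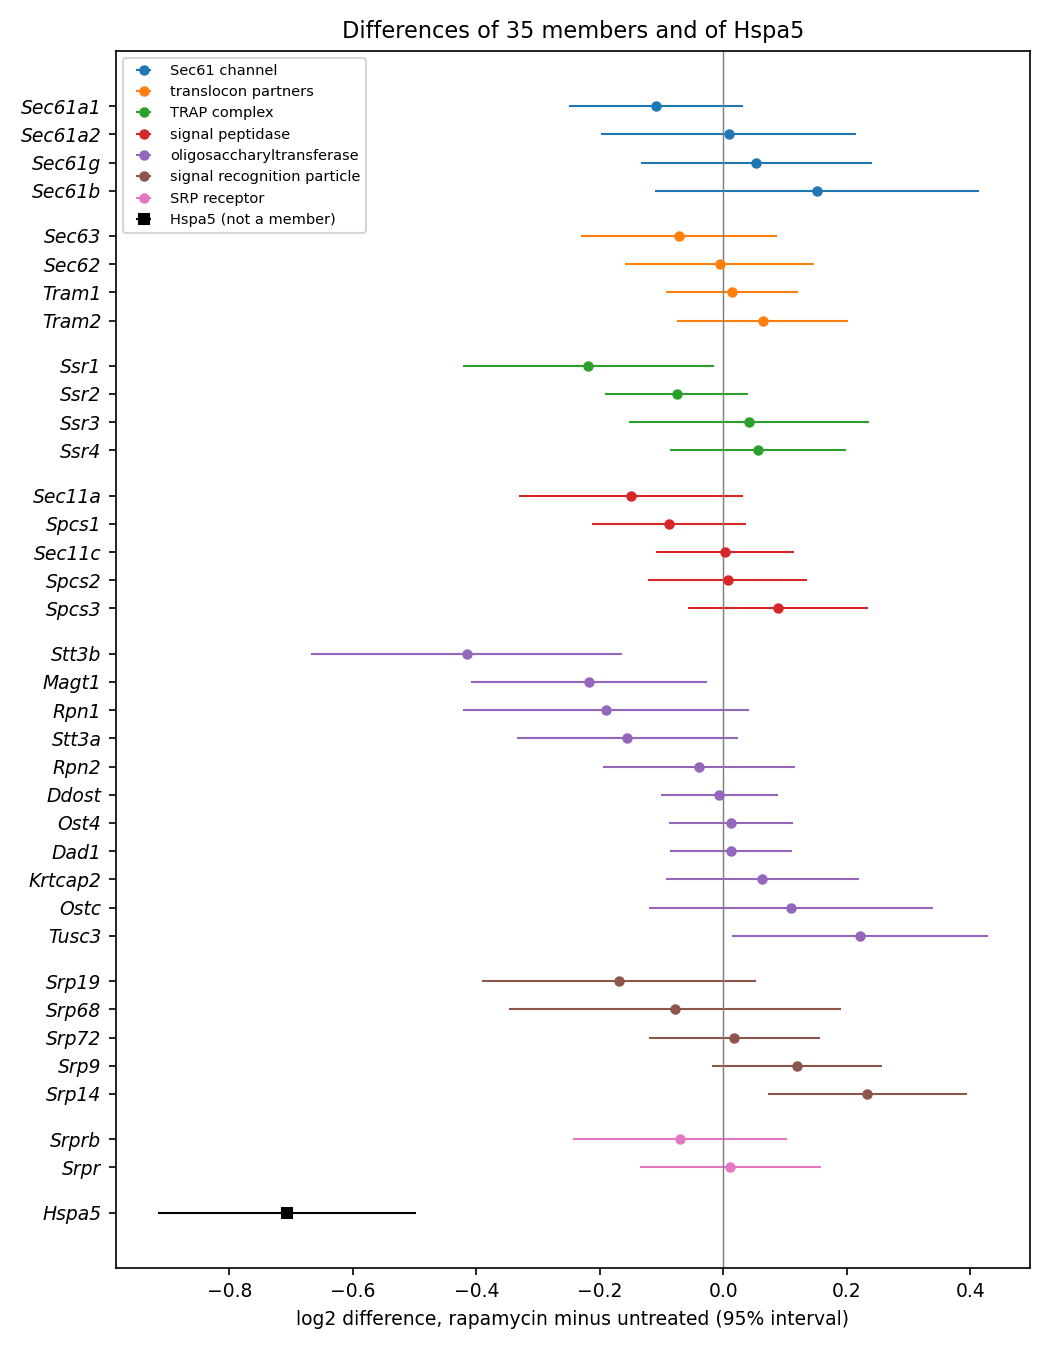
Log2 difference between rapamycin and untreated arrays (x axis) for each member, coloured by complex, with Hspa5 as the last row. Points are differences of means over 5 arrays a group and bars are 95% intervals from limma. The members' points lie between -0.42 and 0.23 around 0, and Hspa5 lies at -0.71.

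Several facts of the arrays bear on every value above and below. Xist, the X-inactivation RNA, was at 8.87 to 9.62 on the rapamycin arrays and at 3.75 to 4.00 on the untreated arrays, and the Y-linked Eif2s3y at 3.58 to 4.06 on the rapamycin arrays and at 7.41 to 8.68 on the untreated arrays. The rapamycin arrays thus carry female and the untreated arrays male transcripts, and treatment and sex cannot be told apart. Rapamycin replicate 4 stood apart on the first principal component, at 22.3, with the other rapamycin arrays at 4.17 to 8.85 and the untreated arrays at -15.4 to -1.16. Of 10 plasma cell markers 0 passed the test, while 2 were higher and 1 was lower at the unadjusted threshold, and all 10 lay above the median signal. Prdm1, the gene of Blimp1 on which the sort rests, had 10.18, 10.06, 10.11, 10.06 and 10.18 on the rapamycin arrays, against 9.95, 9.81, 9.86, 9.43 and 9.52 on the untreated arrays. Its groups did not overlap, and the difference was 0.41 (unadjusted p = 5.5e-04, adjusted p = 0.117 in limma). Mzb1, a chaperone gene of antibody-secreting cells, differed by 0.11 with no overlap (adjusted p = 0.425 in limma), and Creld2, an ER protein gene, by -0.13 (adjusted p = 0.449 in limma). Xbp1, Jchain and Sdc1 had mean signals of 12.27, 13.45 and 10.07 on the rapamycin arrays and of 12.25, 13.40 and 10.01 on the untreated arrays, while Pax5, which plasma cells silence, was at 4.80 and 4.98. Of 15 neutrophil markers 0 passed the test and 5 were higher at an unadjusted p under 0.05, with a summed log2 signal of 10.84 to 11.54 on the rapamycin arrays and of 10.43 to 11.23 on the untreated arrays. Of 7 measured eosinophil markers Prg2 rose, by 0.42 (adjusted p = 0.0473 in limma), and their sum was 12.90 to 13.05 on the rapamycin arrays and 12.30 to 12.80 on the untreated arrays. That sum is nearly all Prg2, with mean signals of 12.93 and 12.51. The other markers did not pass the test, with 0.27 for Prg3, 0.16 for Il5ra, 0.07 for Siglecf, 0.02 for Ear6, 0.0092 for Ccr3 and -0.13 for Epx. Markers of mature B cells summed to 8.71 to 8.95 on the rapamycin arrays and 8.76 to 9.12 on the untreated arrays, and of 8 such genes 3 were lower and 1 was higher at that unadjusted threshold. Monocyte and macrophage markers summed to 8.52 to 8.84 on the rapamycin arrays and 8.83 to 9.003 on the untreated arrays. The brightest of them was Cd68, with mean signals of 7.84 and 8.17 (adjusted p = 0.291 in limma). Of the 7 measured markers of this list 5 differed by less than 0 and 2 by more. Sums of T and NK, erythroid and stromal markers overlapped between the groups, with only 2 of 8 erythroid markers measured. At an unadjusted p under 0.05 were 30% of the plasma cell, 50% of the mature B cell and 33.3% of the neutrophil markers. The share was 14.3% for eosinophil, for monocyte and macrophage and for stromal markers, and 0% for T and NK and for erythroid markers. It was 9.39% of all genes and 12.6% of those above the median signal. The part of these cell types in the differences below was not tested. In RNA from sorted pools, fewer cells of a type and less RNA per cell cannot be told apart.

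Promoters were read for these genes because BiP and some other ER genes share an element there. The ER stress response element (ERSE) spells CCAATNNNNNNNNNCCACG and is known to be bound by NF-Y at its first 5 bases and by ATF6 or XBP1 at its last 5. In RefSeq promoter windows of GRCm38.p6, from 250 bases before to 50 bases after each start, 27 of the 36 genes had an entry. An exact ERSE on either strand was found in 0 of these 27 and in 0.119% of all 32851 windows. Allowing 1 mismatch, Rpn2 and Sec61g had a match, which is 7.41% of the 27, and 1.5% of all windows had one. The shorter UPRE core TGACGTGG was found in 0 of the 27 and in 0.676% of all windows. Among 61 neighbouring genes of the pathway with an entry, 5 held an exact ERSE. Their sites are printed 5′ to 3′ with the fixed bases in capitals, to show the element in the genes that hold it. Nearly all windows lack it, so that its absence is no trait of the members. All 5 genes had a difference below 0.
Hspa5 (chr2:34772025-34772043, plus strand): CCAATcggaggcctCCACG
Calr (chr8:84847075-84847093, plus strand): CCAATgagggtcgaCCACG
Canx (chr11:50325800-50325818, minus strand): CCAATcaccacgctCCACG
Dnajc3 (chr14:118937827-118937845, plus strand): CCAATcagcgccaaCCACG
Alg12 (chr15:88819520-88819538, minus strand): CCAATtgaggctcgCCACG

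The differences of these 5 genes were -0.71 for Hspa5, -0.40 for Alg12, a mannosyltransferase gene of the sugar donor, -0.26 for the lectin chaperone gene Calr, -0.13 for the co-chaperone gene Dnajc3 and -0.09 for the lectin chaperone gene Canx. Only Hspa5 passed the test. Over the whole table, 29 measured genes had an exact ERSE, of which 16 were below 0 and 13 above, with a median of -0.02. At an unadjusted p under 0.05 8 of the 29 were lower and 0 higher, beside 3.26% lower and 6.13% higher of all genes. The lower ones include Hspa5, Alg12, Calr and Dnajc3, so this count is not separate from the genes printed above. The others were Syvn1, Hnrnpa3, the plasma cell marker Creld2 and the X-linked Xlr3c. Xlr3c had a mean signal of 4.57, below the median of 5.18 over all genes, on arrays that differ in sex. Among those above 0 were the ER genes Derl3, at 0.12, and Ero1b, at 0.09. A part of the element in these differences was not tested. A single member, Krtcap2 (3.7% of the 27), held the compact form ERSE-II, which is ATTGG, 1 free base and CCACG, found in 0.0365% of all windows. It lies in the window of one of the gene's 2 starts and is printed as the only exact match of either ERSE form among the members.
Krtcap2 (chr3:89246490-89246500, plus strand): ATTGGaCCACG

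The separate parts were common in the members and in the neighbouring genes. CCAAT was present in 15 of the 27, or 55.6%, and in 37.4% of all windows, and CCACG in 18, or 66.7%, and in 32.8% of all windows. Of the 61 neighbouring genes 27 held CCAAT and 37 held CCACG, so the parts are not particular to the members. The 27 members have 29 windows, and a gene was counted where any of its windows matched. The 250 bases before the start are printed for Hspa5 and for the 2 members with the smallest p, Stt3b and Srp14, with CCAAT and CCACG on either strand in capitals. Hspa5 held CCAAT 4 times and CCACG once, Stt3b held 1 of each far apart, and Srp14 held neither.
Hspa5 (chr2:34771840-34772089, plus strand): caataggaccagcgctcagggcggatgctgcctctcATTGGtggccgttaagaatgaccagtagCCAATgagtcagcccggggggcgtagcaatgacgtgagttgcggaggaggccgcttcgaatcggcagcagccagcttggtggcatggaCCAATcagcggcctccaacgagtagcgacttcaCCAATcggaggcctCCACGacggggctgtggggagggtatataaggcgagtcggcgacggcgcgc
Stt3b (chr9:115310469-115310718, minus strand): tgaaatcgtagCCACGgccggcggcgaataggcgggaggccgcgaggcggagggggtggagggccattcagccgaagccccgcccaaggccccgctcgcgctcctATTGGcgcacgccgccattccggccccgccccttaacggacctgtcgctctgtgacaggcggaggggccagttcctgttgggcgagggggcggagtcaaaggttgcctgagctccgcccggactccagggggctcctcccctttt
Srp14 (chr2:118479697-118479946, minus strand): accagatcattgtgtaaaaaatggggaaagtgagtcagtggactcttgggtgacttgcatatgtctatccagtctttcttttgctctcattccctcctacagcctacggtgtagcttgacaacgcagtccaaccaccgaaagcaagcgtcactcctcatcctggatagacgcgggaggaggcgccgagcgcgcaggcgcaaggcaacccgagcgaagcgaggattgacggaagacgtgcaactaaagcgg

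Of the 5 measured SRP genes none passed the test, and their median difference was 0.02. At an unadjusted p under 0.05, 1 of the 5 was higher, which is 20%. The share was 9.39% of all genes (6.13% higher) and 12.6% of those above the median signal. Srp14 and Srp9 encode the pair of proteins at the end of the particle that slows the ribosome until docking. Srp14 had log2 signals of 8.95, 8.92, 9.09, 9.13 and 9.14 on the rapamycin arrays, against 8.87, 8.71, 8.80, 8.80 and 8.89 on the untreated arrays. Every rapamycin array lay above every untreated array. Srp14 was the only member whose groups did not overlap, 2.86% of the 35, beside 2.06% of all genes and 3.18% of those above the median signal. Its difference was 0.23 (95% interval 0.07 to 0.39, adjusted p = 0.293 in limma). Srp9 had 10.25, 10.25, 10.36, 10.42 and 10.32 on the rapamycin arrays, against 10.10, 10.13, 10.29, 10.26 and 10.21 on the untreated arrays, with untreated replicates 3 and 4 inside the rapamycin range. Its difference was 0.12 (adjusted p = 0.616 in limma). Srp72 and Srp68, the large proteins that clasp the particle's RNA, differed by 0.02 and -0.08. Srp19, which helps to assemble the particle, differed by -0.17 (adjusted p = 0.674 in limma).

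The SRP receptor genes differed by little. Srpr encodes the GTPase subunit that docks with SRP and Srprb the subunit that anchors it in the membrane. Srpr had log2 signals of 10.85, 10.79, 10.75, 10.49 and 10.80 on the rapamycin arrays, against 10.72, 10.73, 10.67, 10.76 and 10.75 on the untreated arrays. Rapamycin replicate 4 was lowest, below all untreated arrays. The difference was 0.01 with all arrays (95% interval -0.14 to 0.16) and 0.073 without rapamycin replicate 4. Srprb had 8.91, 8.79, 8.88, 8.92 and 8.89 on the rapamycin arrays, against 9.08, 8.87, 8.96, 9.09 and 8.74 on the untreated arrays, and differed by -0.07 (adjusted p = 0.865 in limma). Its untreated values enclosed all 5 rapamycin values, and the difference was -0.038, -0.034 and -0.12 without untreated replicate 1, 4 and 5 in turn.

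At the channel itself 0 of 4 Sec61 genes passed either threshold on their brightest probe sets, with a median difference of 0.03. Sec61a1 encodes the pore. It had log2 signals of 11.19, 11.14, 11.09, 11.004 and 10.94 on the rapamycin arrays, against 11.15, 11.06, 11.12, 11.26 and 11.32 on the untreated arrays. The ranges overlapped and the difference was -0.11 (95% interval -0.25 to 0.03, adjusted p = 0.671 in limma). Sec61a2, a second pore gene, differed by 0.0089. Of the small subunits that flank the pore, Sec61b differed by 0.15, with 6.82, 6.93, 7.27, 7.27 and 7.34 on the rapamycin arrays, against 6.86, 6.70, 6.96, 7.12 and 7.23 on the untreated arrays. The value was 0.083 without untreated replicate 2 and 0.099 without rapamycin replicate 5. A second, dimmer probe set of Sec61b stood 0.44 higher on the rapamycin arrays, with a p of 0.0264 before adjustment and 0.45 after it in limma, so that it was under the unadjusted threshold only. Sec61g differed by 0.05, read from a probe set of its own, since a further one also names predicted genes and was not used.

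The partners of the channel had a median difference of 0.0042, and none of 4 passed either threshold. Sec63, the membrane protein that recruits BiP to the channel, had 9.88, 9.87, 9.88, 9.71 and 9.91 on the rapamycin arrays, against 9.70, 9.94, 9.97, 9.95 and 10.05 on the untreated arrays. Untreated replicate 1 was lowest of all 10, the 4 other untreated arrays lay above every rapamycin array, and the difference was -0.07 (adjusted p = 0.85 in limma). It was -0.13 without untreated replicate 1, -0.039 without untreated replicate 5 and -0.037 without rapamycin replicate 4. Sec62, which works with Sec63 on short and late-targeted proteins, differed by -0.0058. Tram1, which helps signal peptides enter the membrane, differed by 0.01. Its relative Tram2 had 11.75, 11.65, 11.77, 11.50 and 11.68 on the rapamycin arrays, against 11.79, 11.64, 11.53, 11.55 and 11.52 on the untreated arrays, with overlapping ranges and a difference of 0.06. That difference was 0.11 without untreated replicate 1 or rapamycin replicate 4, 0.042 without untreated replicate 5 and 0.040 without rapamycin replicate 3.

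The TRAP complex, which sits beside Sec61 and helps some signal peptides to insert, is made of the products of Ssr1, Ssr2, Ssr3 and Ssr4, whose median difference was -0.02. Ssr1 had log2 signals of 8.51, 8.37, 8.32, 8.12 and 8.27 on the rapamycin arrays, against 8.46, 8.63, 8.34, 8.52 and 8.74 on the untreated arrays. Rapamycin replicate 4 was lowest, and the ranges overlapped. The difference was -0.22 (unadjusted p = 0.0364, adjusted p = 0.492 in limma), but the gene's dimmer probe set differed by 0.17, so its probe sets disagreed in direction. Ssr2 had 12.39, 12.52, 12.56, 12.57 and 12.60 on the rapamycin arrays, against 12.68, 12.72, 12.46, 12.58 and 12.58 on the untreated arrays, and differed by -0.08, or by -0.046 without untreated replicate 2 and -0.042 without rapamycin replicate 1. Ssr3 and the X-linked Ssr4 differed by 0.04 and 0.06.

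Signal peptidase had 5 measured genes and none passed either threshold in limma, with a median difference of 0.0025. Sec11a and Sec11c encode its alternative catalytic subunits. Sec11a had 9.08, 9.10, 9.06, 9.22 and 9.14 on the rapamycin arrays, against 9.11, 9.55, 9.19, 9.29 and 9.21 on the untreated arrays. All but the lowest of the untreated values lay above 4 of the rapamycin values, and the difference was -0.15 (95% interval -0.33 to 0.03, adjusted p = 0.642 in limma), or -0.079 without untreated replicate 2. Sec11c differed by 0.0025, with an interval of -0.11 to 0.11. Spcs1, an accessory subunit, had 10.17, 10.14, 10.20, 10.29 and 10.26 on the rapamycin arrays, against 10.30, 10.29, 10.34, 10.25 and 10.32 on the untreated arrays, and differed by -0.09 (two-sided exact permutation p = 0.0397, adjusted p = 0.711 in limma). Spcs2 and Spcs3, the other accessory subunits, differed by 0.0070 and 0.09.

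Of the 11 oligosaccharyltransferase genes 0 passed the test and 3 had an unadjusted p under 0.05, which is 27.3%, beside 9.39% of all genes and 12.6% of those above the median signal, with a median difference of -0.0063. It exists in 2 forms, built around the catalytic proteins STT3A, which acts while the chain enters, and STT3B, which acts on sites that STT3A missed. Stt3b had log2 signals of 9.46, 9.62, 9.79, 9.32 and 9.79 on the rapamycin arrays, against 9.65, 9.85, 10.11, 10.18 and 10.27 on the untreated arrays. Untreated replicate 1 lay inside the rapamycin range and the other untreated arrays lay above it. Its difference of -0.42 was the lowest among the members (95% interval -0.67 to -0.16, two-sided exact permutation p = 0.0317, adjusted p = 0.215 in limma), and it was -0.35 without rapamycin replicate 4. Stt3a had 10.59, 10.58, 10.61, 10.29 and 10.46 on the rapamycin arrays, against 10.43, 10.70, 10.66, 10.63 and 10.89 on the untreated arrays. Its ranges overlapped, with a difference of -0.16 (adjusted p = 0.62 in limma) that was -0.10 without rapamycin replicate 4 and -0.099 without untreated replicate 5.

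MAGT1 and TUSC3 are alternative oxidoreductase subunits of the STT3B form, and their genes differed in opposite directions, neither of them past the test. Tusc3 had the lowest mean signals among the members, 6.09 and 5.87, with the median over all genes at 5.18. Magt1, which is X-linked, had 9.23, 9.27, 9.47, 9.37 and 9.26 on the rapamycin arrays, against 9.25, 9.70, 9.58, 9.49 and 9.66 on the untreated arrays. Untreated replicate 1 lay inside the rapamycin range and the 4 others above it, for a difference of -0.22 (unadjusted p = 0.0278, adjusted p = 0.452 in limma). Tusc3 had 5.98, 5.98, 6.23, 6.28 and 5.997 on the rapamycin arrays, against 5.95, 6.04, 5.70, 5.76 and 5.90 on the untreated arrays. Only untreated replicate 2 reached into the rapamycin range, for a difference of 0.22 (unadjusted p = 0.0376, adjusted p = 0.494 in limma). Ostc and Krtcap2, whose products belong to the STT3A form, differed by 0.11 and 0.06. Of the subunits common to both forms, Rpn1 differed by -0.19, Rpn2 by -0.04, Ddost by -0.0063, and the small membrane proteins Dad1 and Ost4 by 0.01 each. For Ddost, Dad1 and Ost4 the intervals stayed between -0.10 and 0.11.

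**Figure D2:**
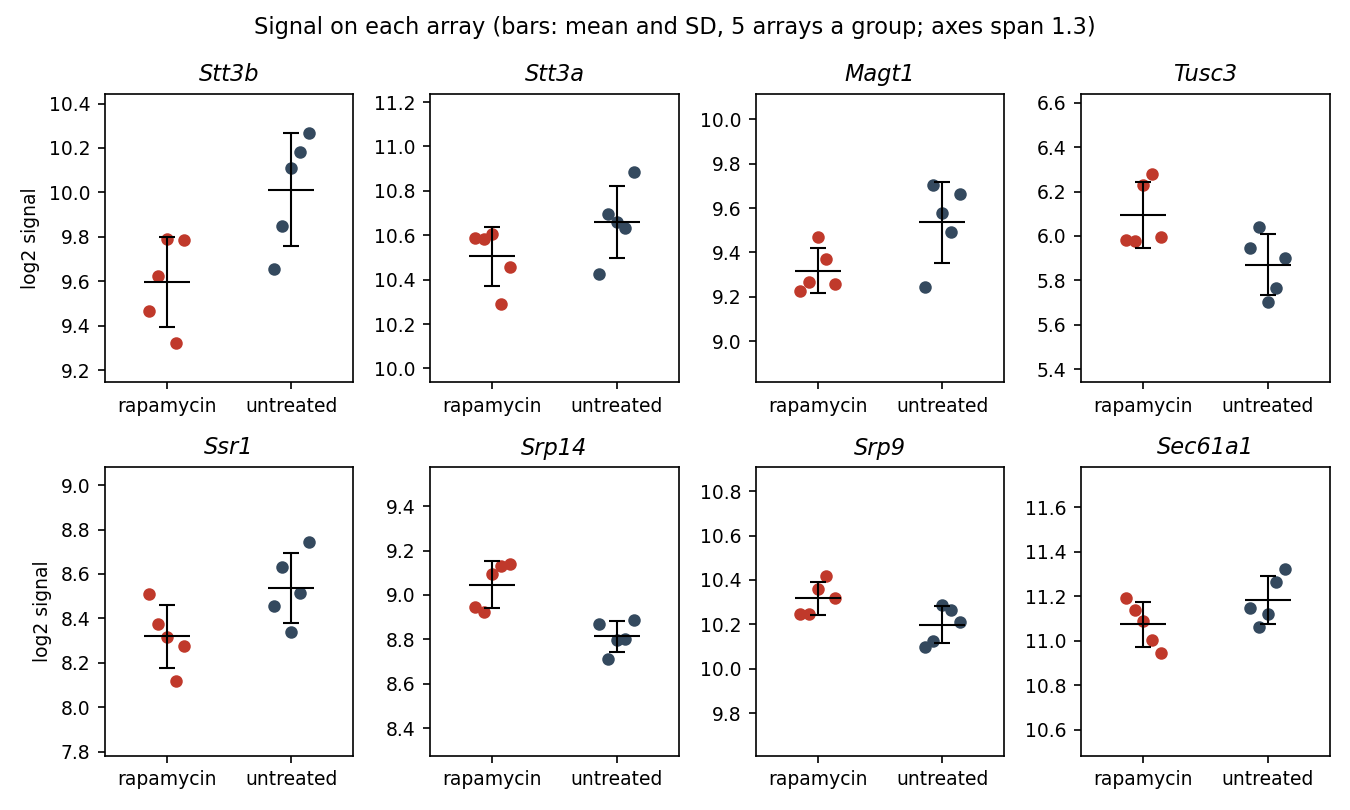
Log2 signal (y axis) on each of 5 rapamycin and 5 untreated arrays for 8 members, with mean and SD as bars. Every panel spans the same height. Only Srp14 has groups that do not overlap, and Stt3b has the lowest difference, -0.42.

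Taken by array, the members did not shift together. The median deviation of the 35 members from their own means lay between -0.01 and 0.02 on the rapamycin arrays and between -0.01 and 0.02 on the untreated arrays. Over all genes it lay between -0.0089 and 0.034 on the rapamycin arrays and between -0.021 and 0.0027 on the untreated arrays. Single complexes moved more on single arrays, but their medians rest on 2 to 11 genes and so vary more. The Sec61 genes were at a median of 0.23 on rapamycin replicate 5 and the partners of the channel at -0.12 on rapamycin replicate 4, while SRP genes were at -0.12 on untreated replicate 1. The authors' filtered table kept 7 of the 35 members, or 20%, beside 47.4% of all genes. The 7 were Stt3b, Ostc, Tusc3, Magt1, Srp14, Srp19 and Srp68, all from OST and SRP.

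**Figure D3:**
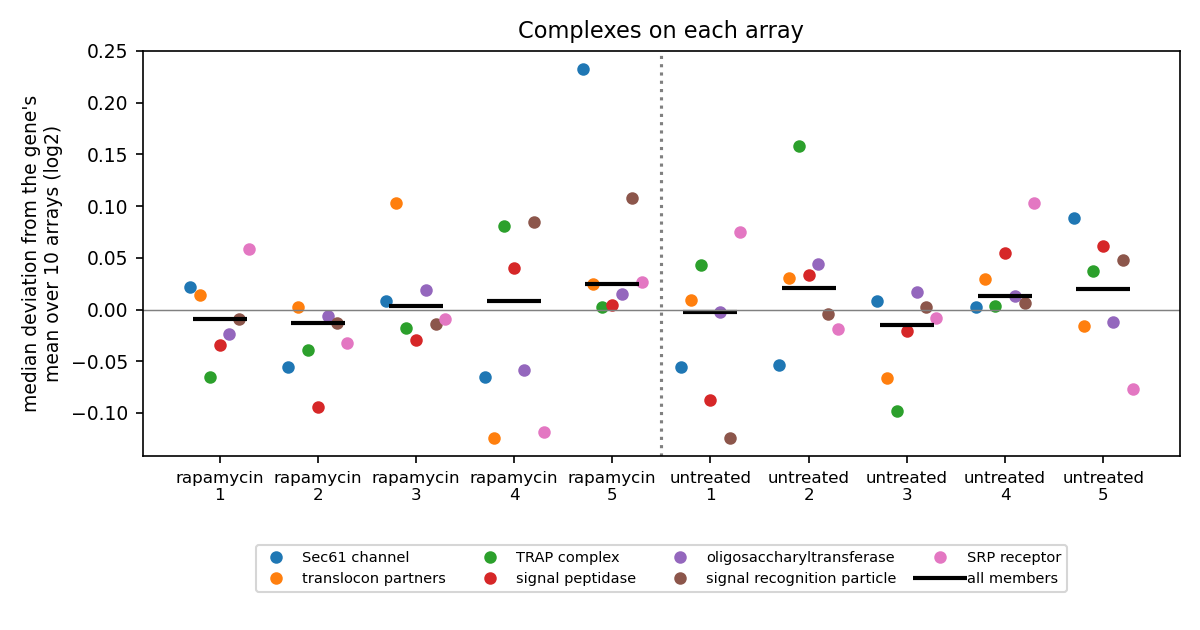
Median deviation of each complex's genes from their means over all 10 arrays (y axis, log2), by array, with the median over all 35 members as a black bar. The black bars stay between -0.01 and 0.02 on every array, while single complexes reach 0.23 and -0.12.

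Genes that work next to these ones were taken from 8 lists, and 1 of the 68 measured genes fell, Hspa5, while 0 rose. At an unadjusted p under 0.05, 4 were higher and 7 lower, or 16.2%, beside 9.39% of all genes (6.13% higher and 3.26% lower) and 12.6% of those above the median signal. The 7 genes of BiP and its co-factors had a median difference of -0.13, and Dnajb9, a co-chaperone of BiP, differed by -0.32 (adjusted p = 0.229 in limma). In the 8 genes of glycan trimming and lectin-assisted folding the median was -0.06. Calr had 10.75, 10.82, 10.78, 10.79 and 10.95 on the rapamycin arrays, against 11.04, 11.10, 11.06, 11.17 and 11.04 on the untreated arrays, with no overlap and an adjusted p of 0.0913 in limma. Prkcsh, of the glucosidase that trims the transferred glycan, differed by -0.28. The 27 genes that build the glycan donor for OST had a median of 0.0074, with -0.40 for Alg12 and -0.25 for Srd5a3, a reductase needed for dolichol.

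Lists of other routes into the membrane had medians between -8.1e-04 and 0.08, and none of their genes passed the test. In the ER membrane complex, which inserts some membrane proteins, the median of 10 genes was 0.04, with 0.28 for Emc2 and 0.25 for Emc4. The multipass translocon list had a median of -8.1e-04 over 6 genes, with 0.23 for Tmco1 and -0.19 for Ccdc47. The tail-anchor and SND list stood at 0.08 over 4 measured genes of 8 listed, with 0.15 for Tmem208 and 0.14 for Bag6. Among the 4 ribosome anchors, with a median of 0.02, Ckap4, a sheet-forming ER protein gene, differed by 0.22 with no overlap between groups (adjusted p = 0.307 in limma), and Lrrc59 by -0.14. Tmem258, another small OST subunit gene, differed by 0.12 and Srp54c, a copy of the SRP GTPase gene, by -0.09.

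**Figure D4:**
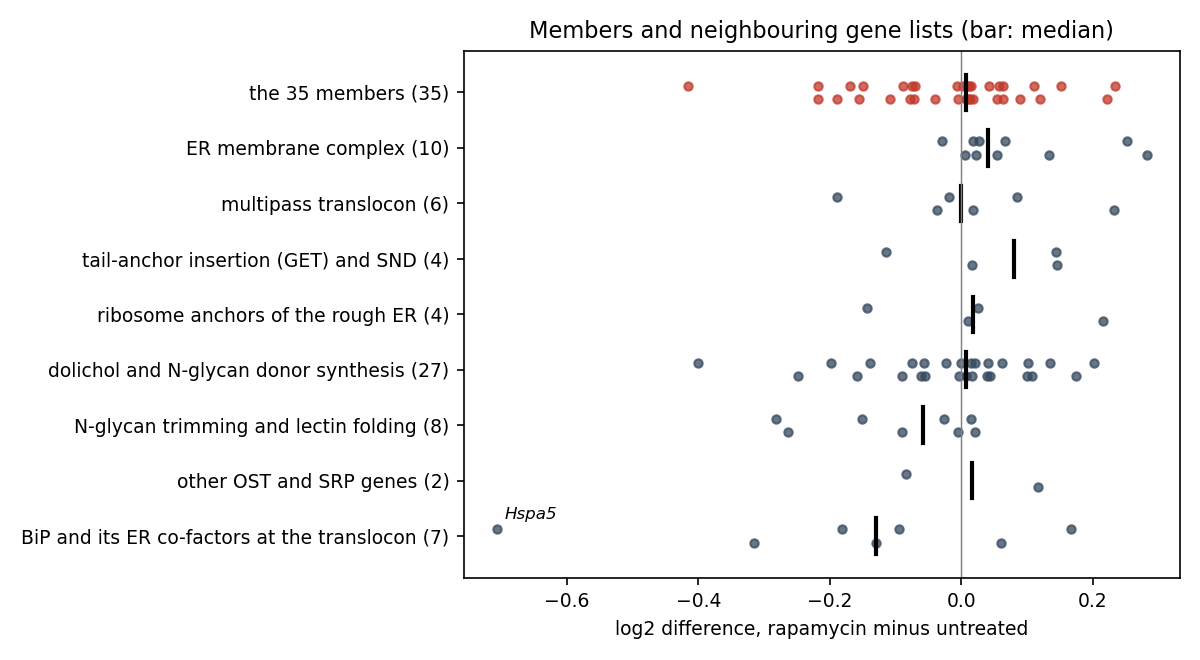
Log2 difference between rapamycin and untreated arrays (x axis) for the 35 members and for the genes of 8 neighbouring lists, with the number of measured genes in brackets and the median as a bar. Hspa5 lies at -0.71, apart from the members, which lie between -0.42 and 0.23.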

How the data were processed

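Transcripts of sorted bone marrow plasma cells of 10 mice were measured on Affymetrix arrays. The authors deposited log2 values, and the submitters' processing notes name RMA, of which the version is not given in the sources used here. RMA equalises the distribution of arrays, so that a shift common to all transcripts is not seen. The whole table has 41345 rows, of which 23521 name 1 gene in the platform annotation, 1820 several, and 16004 are unnamed here. The brightest probe set stood for a gene, which gave 22180 genes. The filtered table of 12280 rows holds the same values (tolerance 1e-06), and its rule is not given in the sources used here.

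Groups were compared with limma 3.58.1 in R 4.3.3 (lmFit, eBayes with intensity trend, two-sided, no covariate), with Benjamini-Hochberg adjustment over all genes and a threshold of 0.05. Adjusted p-values, standard errors and 95% intervals are from this fit. The fit was tested on simulated data. For single genes a two-sided exact permutation test over arrays was added, whose smallest possible p is 0.00794. The number of arrays limits the precision. No label gives a batch.

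The members, lists, motifs and tests were chosen with earlier results of these data known. All members were named. Values on every array were given for the 2 members of each complex with the smallest p and for Sec61a1, Srprb, Stt3a and Stt3b, with any past the test, and from each neighbouring list the 2 genes with the smallest p and Hspa5 were named. Tusc3 was shown by array after its values were seen. Canx, Dnajc3, Derl3, Ero1b, Syvn1, Hnrnpa3, Xlr3c, Cd68 and the eosinophil markers were also named after their values were seen. So were the plasma cell markers Prdm1, Mzb1, Creld2, Xbp1, Jchain and Sdc1. Promoter sequences are from RefSeq (GRCm38.p6), matched by symbol. Alternatives covered the variance model, array weights, a replicate block, the choice of probe set and table, normalization and leaving out each array. Figures were drawn with matplotlib 3.10.9.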

Additional observations from a re-analysis of the deposited data

Results flagged for a closer look

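In each group of 5 arrays, a member was singled out where an array at 1 end of the group lay far from the 4 others, by a gap of more than 0.71 of the group's range. This was met by 5 of 70 groups, and chance would flag about 3.5. Sec63 (9.71, with the others at 9.87 to 9.91), Rpn1 (8.36, with the others at 8.76 to 8.90), Ost4 (12.23, with the others at 12.38 to 12.44) and Srpr (10.49, with the others at 10.75 to 10.85) were each low on rapamycin replicate 4, the array that also stood apart on the first principal component. Sec62 was low on untreated replicate 3, at 8.79, with the others at 8.87 to 8.90.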

How the results depend on the processing

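The count of members past the test stayed at 0 in each direction under every alternative run, including an adjusted p under 0.1 and every omission of an array, and Hspa5 fell in all of them. At an adjusted p under 0.1 Calr joined Hspa5, giving 2 lower pathway genes. Counts at an unadjusted p under 0.05, 2 higher and 3 lower, were less stable. Only 1 member was higher with array weights, and 1 with the replicate block in the fit, which left 2 lower and Hspa5 at an adjusted p of 0.0363. Deviations of same-numbered arrays had correlations of -0.072 to 0.050 over all genes. Other pairs of arrays were not set beside them, so these values cannot settle whether the numbers pair the arrays. With quantile normalization repeated 1 was higher and 6 were lower, and the median difference was -0.043. With the filtered table, where 7 members were tested, 1 was higher and 1 lower, and the median was -0.078. Array weights gave a median of -0.0089. The median ranged from -0.011, without rapamycin replicate 5, to 0.0069 when an array was left out. Without an array, 1 to 2 members were higher and 1 to 5 lower: 5 were lower without untreated replicate 1, 1 when untreated replicate 2, untreated replicate 5 or rapamycin replicate 5 was omitted, and 1 was higher when replicate 3 or 4 of either group was. The cause was not tested. Srpr turned to -0.023 with quantile normalization repeated, and to values of -0.0029, -0.018, -0.0016 and -0.0060 without untreated replicate 3 or rapamycin replicate 1, 2 or 5, and was highest, at 0.073, without rapamycin replicate 4. Tram2 turned to -2.7e-04 with quantile normalization repeated, and Ssr1 to 0.17 on its dimmer probe set, an alternative chosen after seeing the data. The adjusted p of Stt3b ranged from 0.0814 to 0.379 without an array and from 0.0831 to 0.299 under the other fits.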

Other observations

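The gap between the Magt1 and Tusc3 signals within an array was 3.25, 3.29, 3.24, 3.09 and 3.26 on the rapamycin arrays and 3.30, 3.66, 3.87, 3.73 and 3.76 on the untreated arrays. The groups did not overlap, and the gap between Stt3b and Stt3a did, at -1.12, -0.96, -0.82, -0.97 and -0.67 on the rapamycin arrays and -0.77, -0.85, -0.55, -0.45 and -0.62 on the untreated arrays. Both pairs were picked after their values were seen, the levels of different probe sets cannot be compared, and no test was made.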
